A study of Mus musculus with 5 samples.

Results

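The gene expression programmes that 2 vaccine adjuvants set off in the peritoneal cavity, each given with the same antigen, were compared array against array. The antigen was ovalbumin (OVA), a model protein antigen. One adjuvant was AEPS, which is a root polysaccharide of Actinidia eriantha, and the other was alum, an aluminium salt. Female BALB/c mice were injected into the peritoneum, and the cells washed out of it 2 h later were analysed. The injections compared were of 25 µg OVA with 50 µg AEPS (OVA+AEPS) or of 25 µg OVA with 200 µg alum (OVA+Alum). These are 2 of the 5 samples of the series. The other 3 were PBS, 50 µg AEPS alone and 25 µg OVA alone, harvested at the same time, and they are used here only to show on which side a difference lies. The labels name no genetic modification, give no age, and do not say whether RNA of several mice was pooled.

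Each injection was measured once, on a single-colour Agilent array, so the differences below have no replicate check, no test was run between the arrays, and higher and lower describe these arrays only. A level is the log2 signal of a probe minus the log2 of the 75th percentile of its array, so 0 marks that percentile. A difference is the OVA+AEPS level minus the OVA+Alum level, given with a technical standard error (SE) from the error model of the scanner. This SE covers neither the spread of mice nor that of arrays, and the number of arrays limits the precision. Genes entered when their probe was well above background on at least 1 of the 2 arrays (14994 of 20121 genes measured). Of these, 1014 (6.76%) were higher in OVA+AEPS by 2-fold or more, 966 (6.44%) were lower by as much, and 13014 lay in between. Over all 34543 probes that passed, with or without a gene symbol, the shares were 7.23% and 5.61%. These shares are the background against which the count of any gene list is read. Of the called genes, 788 of the 1014 higher and 751 of the 966 lower were well above background on both arrays. The rest are counted by their measured difference. For them the dim array gives at most a bound, which can be under 2-fold (1.59-fold for Bub1 and 1.05-fold for Ticam2). For some no bound could be computed, as for Tnfsf11, which is counted as lower. The median difference over all genes was -0.06, and list medians are given relative to it.

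All 5 arrays lay on 1 slide. The OVA+Alum and PBS arrays lay in column 4 of the slide and the others in columns 1 to 3. On both column 4 arrays, 163 genes were at least 2-fold below each of the other 3 arrays and 15 were at least 2-fold higher. They account for 156 of the 1014 higher and 12 of the 966 lower genes, and are called column 4 genes below. The part of slide position in their values was not tested. Scaled by the spike-in controls instead, all differences moved up by 0.236, and the share of higher genes among the called ones went from 51.2% to 71.4%. With another background correction (normexp), 501 genes were higher and 480 lower.

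Adjuvants act by rousing innate cells at the injection site. Type I interferon, made when nucleic acid or microbial sensors are triggered, signals through its receptor to interferon-stimulated genes, whose promoters carry the interferon-stimulated response element (ISRE). Alum is a particulate adjuvant known for engaging the inflammasome, for rapid recruitment of neutrophils and monocytes, and for a loss of resident macrophages from the lavage. The lavage of an untouched cavity holds mostly large resident macrophages and B cells, with some mast cells and T cells.

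Interferon-stimulated genes set the 2 injections apart more than any other of the 52 lists, by count and by median. Of 56 measured members, 47 were higher in OVA+AEPS by 2-fold or more and none was lower, against 6.76% and 6.44% of all genes. Their median difference was 1.91 above that of all genes. It was 1.88 without the 4 column 4 genes of the list, and lay between 1.80 and 1.94 in the 12 alternative ways of processing. Against the OVA array, the list median was 1.55 for OVA+AEPS and -0.30 for OVA+Alum. The scatter of both arrays shows these genes above the upper 2-fold line over nearly the whole range of signal.

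**Figure D1:**
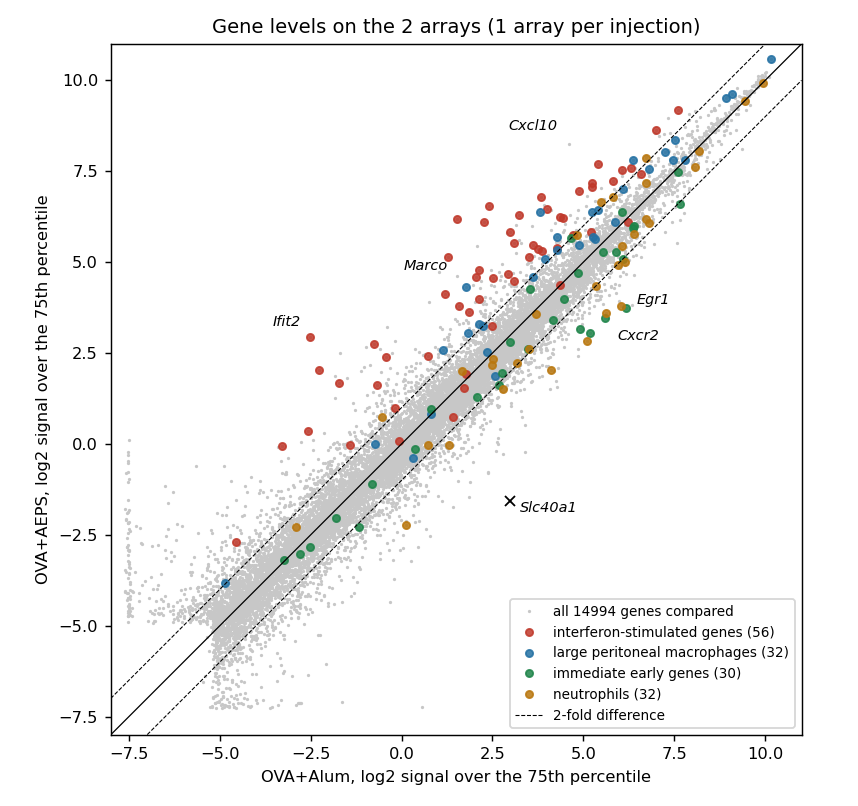
Level of each of the 14994 genes on the OVA+Alum array (horizontal, log2 signal over the 75th percentile) against the OVA+AEPS array (vertical, same unit), with 4 gene lists in colour, the solid line at equality and dashed lines at a 2-fold difference. Most interferon-stimulated genes (red) lie above the upper dashed line, while Slc40a1 (cross) lies far below the lower one at 3.0 on the OVA+Alum array and -1.57 on the OVA+AEPS array.

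The 5 measured Ifit genes, whose proteins bind foreign RNA and block its translation, differed by 3.85 to 5.46. Ifit2 stood at 2.95 in OVA+AEPS and at -2.51 in OVA+Alum, a difference of 5.46 ± 0.21 (43.9-fold). Its level was 2.89 with AEPS alone, -1.14 with OVA and -3.47 with PBS. Both arrays with AEPS were therefore high, with OVA in between and the 2 column 4 arrays lowest, as for Ifit1bl1 (4.32 ± 0.21), also a column 4 gene. Ifit3 was at 6.19 in OVA+AEPS, 6.17 in AEPS, 2.24 in OVA, 1.53 in OVA+Alum and 0.36 in PBS, so that OVA+Alum lay between OVA and PBS, far from both AEPS arrays. Ifit1 differed by 3.85 ± 0.20 (14.4-fold) and Ifit3b by the same amount.

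The ISG15 system attaches the ubiquitin-like protein ISG15 to other proteins. Usp18, which removes ISG15 and damps interferon receptor signalling, was at 6.53 in OVA+AEPS and 2.42 in OVA+Alum (4.12 ± 0.20, 17.3-fold). Isg15 itself, bright on all arrays, was at 9.18 and 7.61 (1.57 ± 0.20). The ligase Herc6 differed by 2.81, while the activating enzyme Uba7 was at 4.36 and 4.35. Its conjugating partner Ube2l6 differed by 0.77, under 2-fold.

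All 5 nucleic acid sensors of the list were higher in OVA+AEPS by 2-fold or more. Eif2ak2 (the kinase PKR, a column 4 gene) differed by 3.52, Dhx58 by 2.22, Zbp1 by 2.07, Ifih1 (MDA5) by 2.04 and Ddx58 (RIG-I) by 1.86. All 12 GTPases of the guanylate-binding and immunity-related families were higher too, from Gbp2 at 1.03 to Tgtp1 at 3.23. Irgm1, which guards against intracellular bacteria, stood at 6.46 in OVA+AEPS and 3.99 in OVA+Alum. In the oligoadenylate synthetase group, whose enzymes make a messenger in response to double-stranded RNA, 5 of 7 genes were higher, among them Oasl2 (1.85) and Oas1a (1.45). Among 22 other effectors, 17 were higher, including Ifi44 (3.41 ± 0.21), the cytidylate kinase Cmpk2 (2.93) and Rsad2 (viperin), which stood at 5.54 and 3.08.

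Several interferon-inducible genes outside the list were among the 15 largest differences of genes measured above background on both arrays. The DNA-binding Ifi200 genes Ifi214 (4.21), Ifi202b (3.70), Ifi213 (3.66) and Ifi209 (3.63) are all column 4 genes. For Ifi202b and Ifi209, the further probes that were above background were at least 2-fold higher as well. This did not hold for all called genes. Among those with such a further probe, 126 of 191 higher and 99 of 183 lower genes had at least 1 that was 2-fold apart the same way. In 2 higher and 3 lower genes a further probe was 2-fold apart the other way. Svop, a synaptic vesicle protein gene, was at -0.61 in OVA+AEPS, -1.5 in AEPS, -4.89 in OVA+Alum, -5.59 in OVA and -5.72 in PBS, high only where AEPS was given.

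The interferon ligand gene Ifnb1 was well above background in OVA+AEPS (-3.08) but not in OVA+Alum (-6.26), at least 5.74-fold higher. It is a column 4 gene, and its level with OVA alone (-3.29) was close to that in OVA+AEPS. Downstream of the receptor, Irf7, the amplifying transcription factor, was at 3.33 and 1.82 (1.52 ± 0.20). Stat2, a transcription factor activated by the receptor, differed by 1.30. Over the 24 measured interferons, receptors and signalling genes, 5 were higher and 1 lower.

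Promoter sequences are printed for 4 interferon-stimulated genes with matches to the motif of this response, and for the cytokine gene Il6, described below, with a match to an NF-κB motif. They come from the RefSeq annotation (GRCm38.p6), run 5′ to 3′ on the strand of the gene, and hold 250 bases before and 50 after the start site. Capitals mark matches, on either strand, to the ISRE core (GAAA, any 2 bases, GAAA) or to the κB motif (GGGA, any 2 bases, TTCC).
Ifit1, chr19:34640639-34640938, plus strand: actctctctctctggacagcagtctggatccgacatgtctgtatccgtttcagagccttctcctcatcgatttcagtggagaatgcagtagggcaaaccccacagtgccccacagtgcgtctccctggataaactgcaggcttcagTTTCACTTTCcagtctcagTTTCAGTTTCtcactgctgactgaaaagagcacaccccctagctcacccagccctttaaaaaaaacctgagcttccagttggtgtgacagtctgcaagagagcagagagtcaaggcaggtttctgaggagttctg
Isg15, chr4:156200769-156201068, minus strand: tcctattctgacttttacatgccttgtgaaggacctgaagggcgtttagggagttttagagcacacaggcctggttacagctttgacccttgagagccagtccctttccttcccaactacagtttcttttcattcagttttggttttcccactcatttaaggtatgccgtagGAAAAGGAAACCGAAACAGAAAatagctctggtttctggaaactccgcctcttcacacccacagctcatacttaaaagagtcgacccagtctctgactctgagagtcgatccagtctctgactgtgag
Rsad2, chr12:26456403-26456702, minus strand: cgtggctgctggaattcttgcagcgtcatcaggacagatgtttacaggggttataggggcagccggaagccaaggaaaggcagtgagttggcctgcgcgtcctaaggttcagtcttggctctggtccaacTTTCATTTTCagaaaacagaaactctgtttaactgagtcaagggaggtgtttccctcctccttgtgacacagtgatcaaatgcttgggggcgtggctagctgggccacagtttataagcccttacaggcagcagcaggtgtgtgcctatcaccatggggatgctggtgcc
Cxcl10, chr5:92348840-92349139, minus strand: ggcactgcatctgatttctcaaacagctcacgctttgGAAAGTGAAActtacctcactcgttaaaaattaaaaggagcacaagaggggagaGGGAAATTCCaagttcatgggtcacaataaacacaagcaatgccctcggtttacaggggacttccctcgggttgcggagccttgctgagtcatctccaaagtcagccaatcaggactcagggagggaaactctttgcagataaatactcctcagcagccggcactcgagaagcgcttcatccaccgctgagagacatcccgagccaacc
Il6, chr5:30012864-30013163, plus strand: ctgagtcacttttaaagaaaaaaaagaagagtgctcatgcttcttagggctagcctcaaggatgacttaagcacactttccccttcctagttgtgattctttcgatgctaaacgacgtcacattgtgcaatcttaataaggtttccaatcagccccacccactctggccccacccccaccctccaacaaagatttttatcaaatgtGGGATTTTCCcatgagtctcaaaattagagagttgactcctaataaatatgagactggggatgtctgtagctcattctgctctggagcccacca
Ifit1 held 2 ISRE matches, which begin 104 and 85 bases before the start site. Isg15 held 3 overlapping ones, which begin 78, 72 and 66 bases before it. Rsad2 held 1 match at 120 bases, and Cxcl10 held 1 at 213 bases and also a κB match at 159 bases. Il6 held a κB match at 44 bases before the start site and no ISRE match.

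A promoter was found for 27025 genes, of which 944 (3.49%) held the ISRE core on either strand. Among genes compared here the share was 3.23% (386 of 11956). It was 8.74% (70 of 801) among the genes called higher and 3.18% (23 of 724) among those called lower. Of the 37 interferon-stimulated genes called higher with a promoter, 24 held it, and 3 held the κB motif. The κB motif was in 1.44% of all promoters, 2.12% of those of higher genes and 2.07% of those of lower genes. It was in 4 of 45 interferon-stimulated genes (8.89%), in 2 of 29 NF-κB pathway genes, and in 0 of the 7 of these that were called higher. The CArG box of immediate early genes was in 1.59% of all promoters and 1.52% of those of lower genes. Among immediate early genes it was in 2 of 23, and in 0 of the 7 called lower. ISRE and κB matches overlapped in 1 promoter. A match describes the letters in the window and not a bound site.

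Chemokines and cytokines differed by family. Cxcl10, the interferon-induced chemokine that draws Cxcr3-bearing T and NK cells, was at 8.24 in OVA+AEPS, 8.17 in AEPS, 5.45 in OVA, 4.6 in OVA+Alum and 2.35 in PBS. Its difference was 3.64 ± 0.20 (12.5-fold). The receptor Cxcr3 went the other way, at 1.84 in OVA+AEPS and 3.78 in OVA+Alum (-1.95 ± 0.20). Cxcl9 differed by 0.84, under 2-fold.

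Among CC and other chemokines, 7 of 28 genes were higher in OVA+AEPS and 2 lower. All 7 higher genes were ligands. The monocyte attractant Ccl7 stood at 5.51 in OVA+AEPS, 5.47 in AEPS, 3.30 in OVA+Alum, 2.95 in OVA and 2.60 in PBS (2.22 ± 0.20). Its relative Ccl2 differed by 1.37, and the inflammatory ligands Ccl3 and Ccl4 by 1.46 and 1.17. For these 4 genes OVA+Alum was at most 0.45 above OVA alone (Ccl4), and both AEPS arrays were higher. Cxcl13, the B cell attractant made by resident macrophages, had another shape. It was at 6.38 in OVA+AEPS and between 5.64 and 6.30 in PBS, AEPS and OVA, but at 3.80 in OVA+Alum. The 2 lower genes were the receptors Cxcr4 (-1.34) and Cx3cr1 (-1.01). A further probe of Cx3cr1 was under 2-fold apart.

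Among the 8 neutrophil-recruiting chemokine and receptor genes, 1 was higher in OVA+AEPS and 3 were lower. The 6 ligands held the higher gene and 1 of the lower ones. Cxcl1 stood at 8.55 in OVA+AEPS and 6.98 in OVA+Alum (1.57 ± 0.20). Cxcl2, Cxcl5 and Cxcl3 differed by 0.84, 0.57 and 0.45, all under 2-fold. Pf4, at 8.91 and 7.91, was just under 2-fold. The platelet-derived ligand Ppbp was not well above background in OVA+AEPS and at least 2.19-fold lower there than in OVA+Alum. Both receptors were also lower in OVA+AEPS. Cxcr2 stood at 3.6 against 5.63 (-2.04 ± 0.20), and Cxcr1 at -1.58 against 1.12 (-2.70 ± 0.21). Levels of Cxcr2 were 2.07 in PBS, 4.05 in AEPS and 4.42 in OVA, so OVA+Alum was the highest of the 5 arrays.

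Il6, a central acute-phase cytokine, was at 5.44 in OVA+AEPS and at 2.08 in OVA+Alum (3.36 ± 0.14, 10.3-fold). The levels of the other arrays were 5.63 in AEPS, 4.15 in PBS and 4.06 in OVA, so OVA+Alum was the lowest array. Osm (oncostatin M), a cytokine of the same family, was the reverse. It stood at 3.38 in OVA+Alum, 0.51 in OVA+AEPS and between 0.94 and 1.46 elsewhere (-2.87 ± 0.20), and OVA+Alum was the highest array. The family member Lif was well above background in OVA+AEPS (-2.26) and not in OVA+Alum (-6.04), at least 10.1-fold higher. Of the other arrays it was well above background in PBS (-3.82) and not in AEPS (-5.49) or OVA (-5.81). Il19, of the interleukin 10 family, was at 2.82 in OVA+AEPS, 2.75 in AEPS, -0.19 in OVA+Alum, -0.01 in OVA and -1.57 in PBS (3.01 ± 0.20).

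Of 11 genes of the interleukin 12 family and interleukin 15, 3 were higher in OVA+AEPS and none was lower. Il23a, the private subunit of interleukin 23, was at -0.46 in OVA+AEPS and -3.32 in OVA+Alum (2.86 ± 0.22), with -0.15 in AEPS and -2.77 in OVA. Il27 differed by 1.62 and Il15, which sustains NK and memory T cells, by 1.49. Il12a differed by -0.09. In the interleukin 1 family, Il1b stood at 8.35 and 8.73, close to equal. Il1a stood at 2.62 and -0.61 (3.23 ± 0.20) and is a column 4 gene, at 0.04 in PBS. In the TNF superfamily, 7 of 29 genes were higher and 6 lower. Tnf itself differed by 1.41 ± 0.07, the death ligand Tnfsf10 (TRAIL) by 1.95 and the co-stimulatory ligand Tnfsf9 (4-1BBL) by 2.04. Tnfsf14 (LIGHT) stood at 1.57 in OVA+AEPS and 4.27 in OVA+Alum (-2.70 ± 0.20). OVA+Alum was the highest of the 5 arrays for Tnfsf14.

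**Figure D2:**
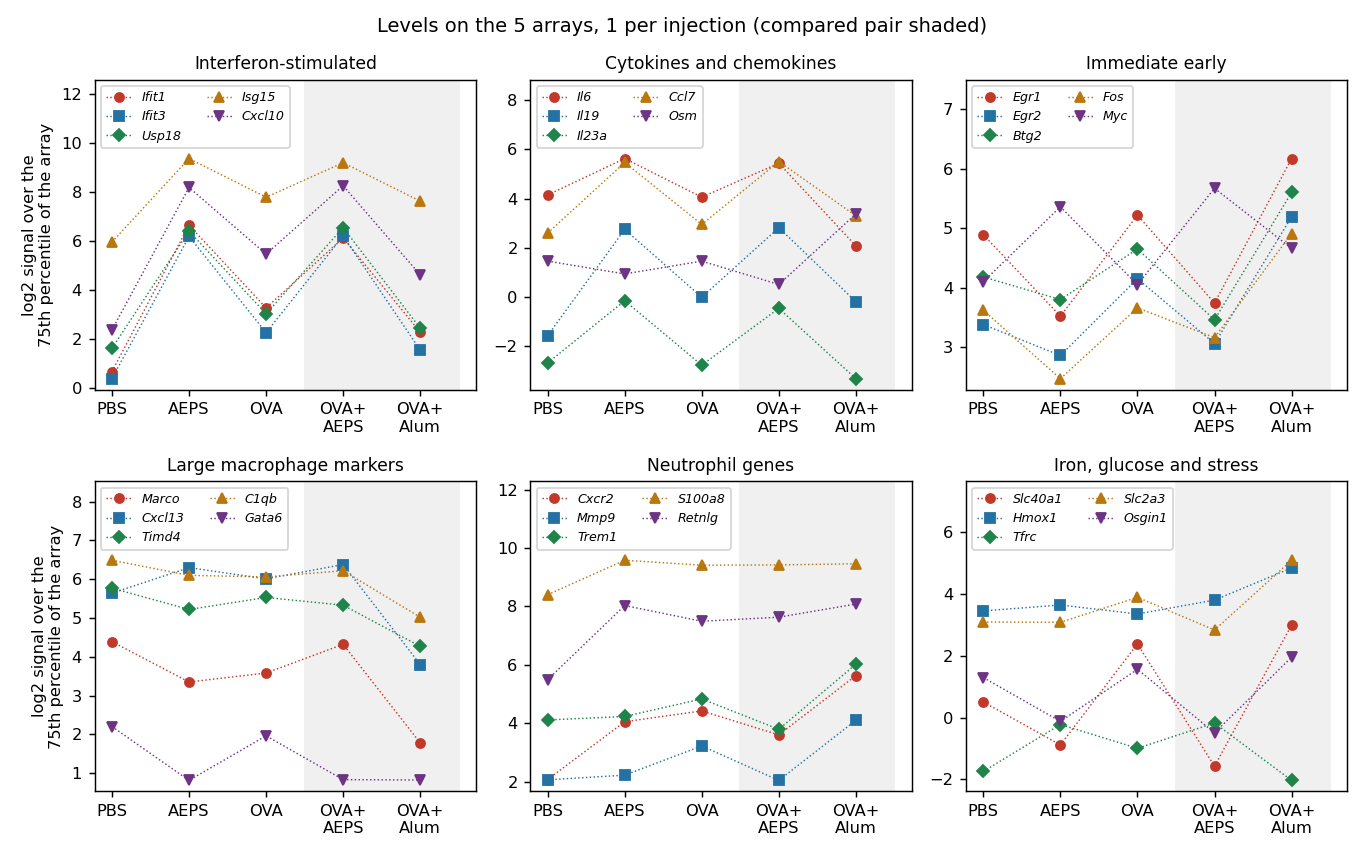
Level of 30 genes (log2 signal over the 75th percentile, vertical) on the 5 arrays, 1 array per injection, with the compared pair shaded and dotted lines only joining the points of 1 gene. Ifit1, Usp18 and Cxcl10 are high on both AEPS arrays, whereas Osm, Egr1 and Cxcr2 are highest and Il6, Cxcl13 and Marco lowest on the OVA+Alum array.

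Genes of the NF-κB pathway, the main inflammatory transcription pathway, had a median of 0.69 above all genes. Of 35 members, 8 were higher in OVA+AEPS and none lower, and 30 had a positive difference. Of the 8, 4 are column 4 genes (Cflar, Tnip3, Birc2 and Bcl2a1d). The count was 4 without them, and 13 by spike-in scaling. Among the others, the feedback inhibitor Tnfaip3 (A20) stood at 7.59 and 6.43 (1.17 ± 0.20), and Sod2 at 9.15 and 8.06 (1.08 ± 0.20). Socs1, an inducible brake on cytokine receptors, stood at 6.10 and 4.76 (1.34 ± 0.20).

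Immediate early genes, switched on within minutes of a stimulus and many of them transcription factors, lay on the alum side. Of 30 members, 8 were at least 2-fold lower in OVA+AEPS and 1 (Myc, 1.01) was higher, and the median was 0.39 below all genes. Egr1 stood at 3.74 in OVA+AEPS, 3.52 in AEPS, 4.89 in PBS, 5.22 in OVA and 6.17 in OVA+Alum (-2.43 ± 0.20). Both AEPS arrays were thus below PBS and OVA+Alum above it. Egr2 and the antiproliferative gene Btg2 each differed by -2.14 ± 0.20, and Fos by -1.75 ± 0.07. The other lower members were Nr4a2, Jund, Junb and Fosl2, between -1.10 and -1.01. A further probe of Nr4a2 was under 2-fold apart. By spike-in scaling 4 of the 30 genes were lower.

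Large peritoneal macrophages are the resident phagocytes of the cavity, defined here by Gata6, Timd4, Icam2 and Adgre1. Of 32 measured genes of this list, 13 were higher in OVA+AEPS by 2-fold or more and none lower, and the median was 0.87 above all genes. Against OVA the list median was 0.08 for OVA+AEPS and -0.70 for OVA+Alum, so the difference lay on the side of alum. The summed signal of the list, in multiples of the 75th percentile, was 5332.4 in OVA+AEPS and 3531.0 in OVA+Alum, and 4778.9 to 5260.1 on the other arrays. In bulk RNA, fewer cells of a type and less RNA per cell cannot be told apart.

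Within the macrophage list, the scavenger receptor gene Marco stood at 4.32 in OVA+AEPS, 4.39 in PBS, 3.58 in OVA, 3.35 in AEPS and 1.78 in OVA+Alum (2.55 ± 0.20). Timd4, a receptor for dying cells, was at 5.33 and 4.27 (1.06 ± 0.20), and 5.22 to 5.77 on the other 3 arrays. Adgre1 and Icam2 differed by 0.91 and 0.78, under 2-fold. Gata6, the transcription factor that fixes the identity of these cells, stood at 0.83 and 0.82. It was at 0.81 in AEPS, 1.96 in OVA and 2.20 in PBS, so the 3 arrays with an adjuvant were alike and below both others. Further members that were higher in OVA+AEPS were Vsig4 (1.43), Serpinb2 (1.45), Arg1 (1.44) and Alox15 (1.14). By normexp the list had 10 higher genes and by spike-in scaling 17.

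Complement and scavenger genes, many of them expressed by resident macrophages, followed the same direction. These lists share members with the macrophage list, such as Vsig4 (complement) and Marco (scavenger receptors), so they are not separate from it. In the complement list, 7 of 24 genes were higher in OVA+AEPS and 1 lower. The 3 chains of C1q, which starts the classical pathway, differed by 1.04 (C1qa), 1.20 (C1qb) and 1.04 (C1qc). C1qb was at 6.22 in OVA+AEPS, 6.06 to 6.49 on the PBS, AEPS and OVA arrays, and 5.02 in OVA+Alum. Factor B of the alternative pathway (Cfb) differed by 1.33. The exception was C5ar2, a second receptor for the C5a fragment, at 0.42 and 2.71 (-2.29 ± 0.20). Of 28 lectin, NOD and scavenger receptors, 9 were higher, among them Msr1 (1.48) and the DNA sensor Cgas (1.18), and 1 was lower, Clec9a (-1.33). 2 of the 9, Clec4e and Clec5a, are column 4 genes.

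Among 13 macrophage enzymes that use arginine, tryptophan and citric acid cycle intermediates, 5 were higher in OVA+AEPS and none was lower. Against OVA the list median was 0.26 for OVA+AEPS and -0.15 for OVA+Alum. Arg1, given above with the macrophage list, is among the 5, and differed from OVA by 0.27 in OVA+AEPS and by -1.17 in OVA+Alum. Nos2, which makes nitric oxide, stood at 4.35 in OVA+AEPS and 2.55 in OVA+Alum (1.79 ± 0.14), with 3.94 in AEPS, 3.33 in OVA and 1.82 in PBS. Acod1, which makes itaconate, was at 9.08 and 7.90 (1.17 ± 0.07). Gch1, which makes a cofactor of Nos2, differed by 1.20. Ido1, a column 4 gene, was not well above background in OVA+Alum and at least 4.98-fold higher in OVA+AEPS.

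Genes of the neutrophil list lay mostly on the alum side but not together. Of 32 genes, 9 were lower in OVA+AEPS and 3 higher, and the median was 0.52 below all genes. The 7 defining genes had differences from -2.06 to -0.03, with a median of -0.75, and 2 of them were lower by 2-fold or more, Mmp9 and the receptor Cxcr2 given above. The defining calgranulin genes S100a8 and S100a9 differed by -0.04 and -0.03 (each ± 0.20), and Retnlg by -0.45. S100a8 stood at 9.42 and 9.46 against 8.40 in PBS. The lower genes included the gelatinase gene Mmp9 (-2.06 ± 0.07), the amplifying receptor Trem1 (-2.24 ± 0.20), the granule enzyme gene Mpo (-2.35 ± 0.21) and Il1r2 (-1.04 ± 0.20). Trem1 stood at 6.02 in OVA+Alum and between 3.79 and 4.83 on the other arrays, so that OVA+Alum stood apart. The 3 higher genes were Prtn3 (1.29) and the column 4 genes Fpr2 and Clec4e. The summed signal was 3164.2 in OVA+AEPS and 3363.4 in OVA+Alum, against 1734.7 in PBS. This sum is on a linear scale, so bright genes such as S100a8 and S100a9 (9.92 and 9.95) weigh most in it.

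Gene lists of the lining and of lymphocytes also had medians below that of all genes. Of 19 mesothelial, stromal and endothelial genes, 6 were lower in OVA+AEPS and none was higher, with a median of 0.69 below all genes. Their summed signal was 51.2 in OVA+AEPS and 69.1 in OVA+Alum, and 43.4 to 58.2 elsewhere. Krt19 and Upk3b of the mesothelial lining differed by -1.05 and -1.19, and Msln, another lining marker, by -0.88. By normexp 2 of the 19 were lower. For 25 T and NK cell genes the median was 0.57 below all genes, with 3 lower (Thy1, Cd8b1 and Cd3d, between -1.14 and -1.0) and 1 higher (Klrk1). Cd3e stood at 3.85 in OVA+AEPS, 4.52 in OVA+Alum and 4.11 to 4.46 elsewhere. Of 21 B cell genes, 3 were lower and none higher. By spike-in scaling no T, NK or B cell gene was 2-fold lower, and over the 12 alternatives the count for T and NK cells ran from 0 to 9.

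The mast cell genes that differed were mainly column 4 genes, and for these slide position and injection cannot be told apart. Of 18 genes, 5 were higher in OVA+AEPS, and 4 of these are column 4 genes. Cpa3, a mast cell protease gene, stood at 4.95 in OVA+AEPS, 5.05 in AEPS, 5.17 in OVA, 2.97 in PBS and 2.77 in OVA+Alum. The other defining proteases Mcpt4, Tpsb2 and Cma1 differed by -0.06, -0.01 and 0.18. The eosinophil marker Epx was not well above background on both arrays, and Ccr3 differed by 0.70. Inflammatory monocyte genes had a median of 0.03 above all genes, with 2 of 13 higher in OVA+AEPS and 1 lower. Vcan, 1 of the 2 higher, is a column 4 gene, and the defining marker Ccr2 differed by -0.41. Haemoglobin genes stood at 9.31 and 9.59 for Hba-a1 and 6.45 and 7.02 for Hbb-bs, under 2-fold apart.

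**Figure D3:**
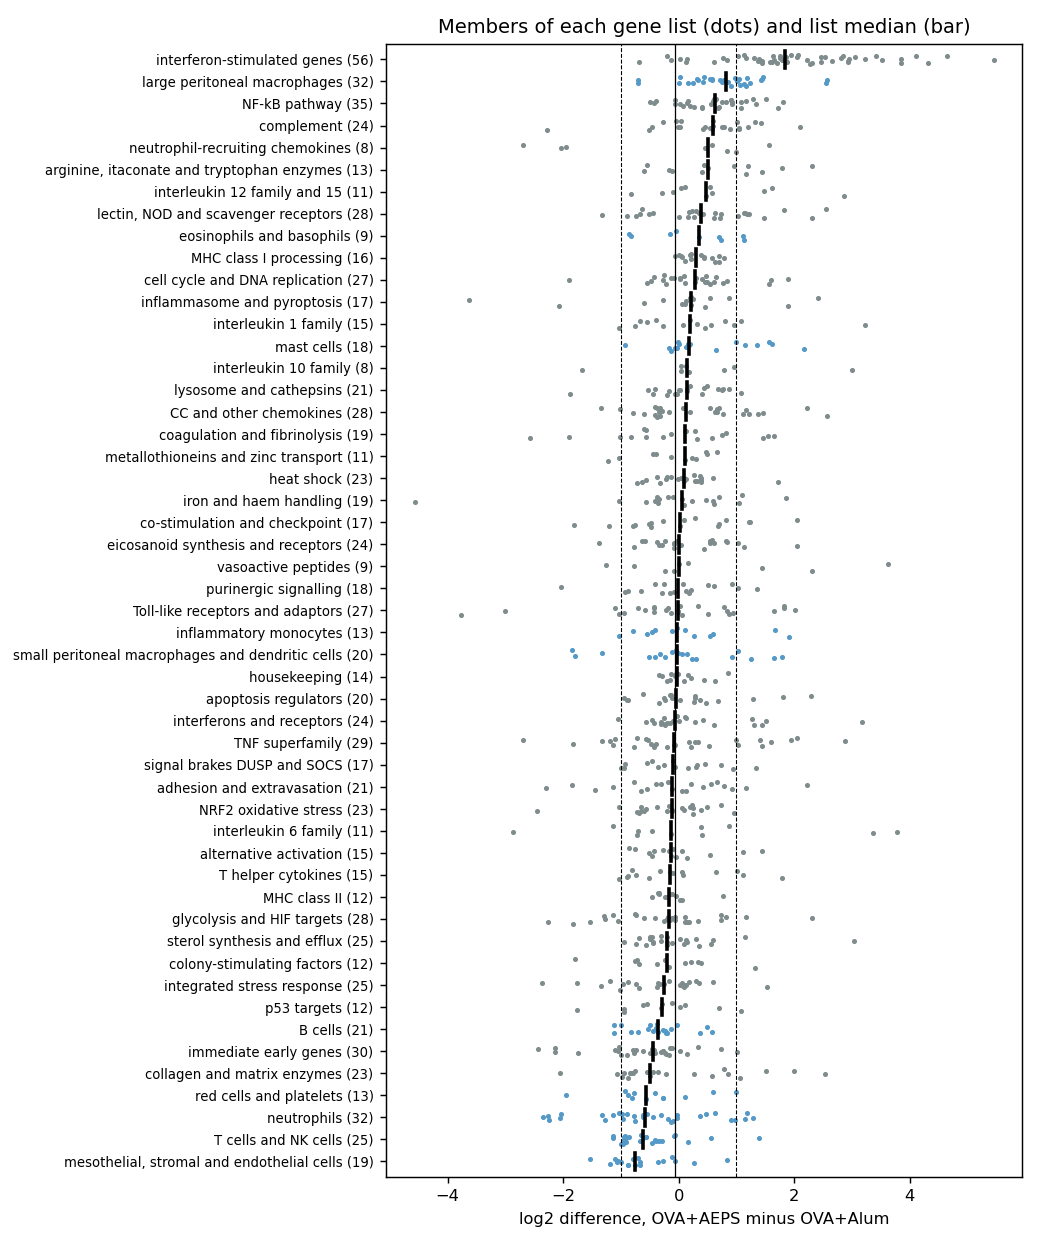
Log2 difference (OVA+AEPS minus OVA+Alum, horizontal) of every measured member (dots, pathway lists grey and cell type marker lists blue) of each list with at least 8 measured genes, with the list median as a black bar, the solid line at the median of all genes and dashed lines at 2-fold. Interferon-stimulated genes are the 1 list whose median passes 2-fold, followed by large peritoneal macrophages at the top and mesothelial, stromal and endothelial genes at the bottom.

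When genes with a bound only are set aside, the differences towards alum were led by single genes. Slc40a1 (ferroportin), the iron exporter, stood at -1.57 in OVA+AEPS, -0.88 in AEPS, 0.51 in PBS, 2.39 in OVA and 3.0 in OVA+Alum. Its difference was -4.56 ± 0.21 (23.7-fold lower in OVA+AEPS), with OVA and OVA+Alum high and both AEPS arrays low. The transferrin receptor gene Tfrc, which brings iron into cells, went the other way, at -0.17 in OVA+AEPS and -2.03 in OVA+Alum (1.86 ± 0.07), and both of its further probes did so too. Hmox1, which degrades haem, was at 3.81 and 4.85 (-1.04 ± 0.20), and its 1 further probe was under 2-fold apart. Over 19 iron and haem genes, 3 were higher and 2 lower.

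Arl11, a small GTPase gene, followed Slc40a1 in this ranking at -4.34 in OVA+AEPS and -0.32 in OVA+Alum (-4.02 ± 0.29), with -3.90 in AEPS and -1.11 in OVA. Gsdme, a pore-forming gasdermin cleaved by caspase-3, stood at -0.23 and 3.40 (-3.64 ± 0.20), with 0.17 in AEPS, 0.78 in PBS and 2.5 in OVA. Within the inflammasome and pyroptosis list the median was only 0.27 above all genes. The sensor Nlrp1b differed by -2.07, while Casp1 (1.89) and Casp4 (2.42), the 2 higher genes of the 17, are column 4 genes. Further genes among the 15 lowest of this ranking were the enzyme gene Gad1 (-3.49), the nucleotidase gene Entpd3 (-3.31), the sodium channel subunit Scnn1a (-3.18), the kinase gene Aatk (-3.07) and the myeloid receptor Cd300lb (-2.92). On the AEPS array, 14 of these 15 genes were at least 2-fold lower than on the OVA array, and the exception was Scnn1a (-0.99). Of the 14471 genes compared on both pairs, 2.25% were lower by as much in AEPS than in OVA.

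Stress and glucose genes were mixed. Osgin1, an oxidative stress response gene, stood at -0.49 and 1.96 (-2.45 ± 0.20), the largest of 2 lower genes among the 19 NRF2 targets measured. None of the 23 genes of this list, regulators included, was higher. In the integrated stress response, 5 of 25 genes were lower and 1 higher. They included the cytokine gene Gdf15 (-2.37), which is higher on both column 4 arrays, the stress sensor gene Sesn2 (-1.77) and the kinase gene Eif2ak3 (-1.35). Of 28 glycolysis and HIF target genes, 7 were lower and 2 higher. The glucose transporter Slc2a3 stood at 2.84 in OVA+AEPS, 5.10 in OVA+Alum and 3.09 to 3.90 on the other arrays (-2.26 ± 0.20), and Slc2a1 differed by -1.14. Vegfa, the vascular growth factor, differed by -1.83 ± 0.15. Pfkfb3, which drives glycolytic flux, was higher in OVA+AEPS (1.17 ± 0.20).

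Antigen presentation differed little. None of 12 MHC class II genes and none of 16 MHC class I processing genes reached 2-fold. H2-Ab1 stood at 9.08 and 9.20 and Cd74, the class II chaperone, at 8.74 and 8.94. For class I, the median was 0.36 above all genes, with the peptide transporter Tap1 at 2.52 and 1.82. Among 17 co-stimulatory and checkpoint genes, Cd274 (PD-L1) was at 5.55 and 4.32 (1.22 ± 0.20) and Vsir (VISTA) at 2.66 and 4.47 (-1.81 ± 0.20). None of the 14 measured housekeeping genes reached 2-fold. Actb, Gapdh and Rplp0 differed by 0.16, -0.06 and 0.00, and Hprt by 0.86.

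**Figure D4:**
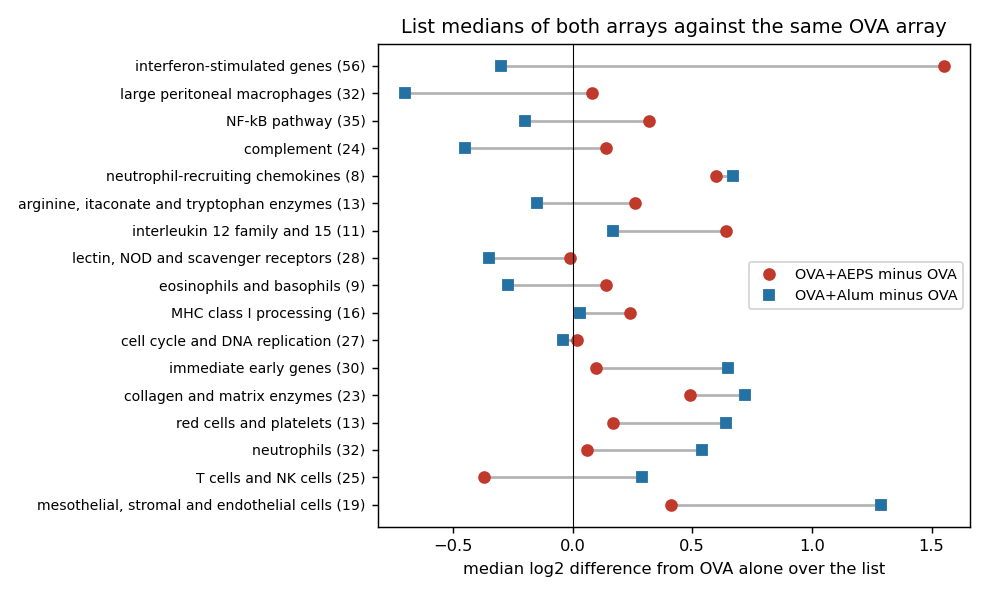
Median log2 difference from the OVA array (horizontal) of the 17 lists with at least 8 measured genes whose median in the compared pair lay 0.35 or more from that of all genes, as red circles for OVA+AEPS and blue squares for OVA+Alum, both measured against the same OVA array. The interferon-stimulated genes stand at 1.55 and -0.30, the large peritoneal macrophage genes at 0.08 and -0.70, and the immediate early genes at 0.10 and 0.65.

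The AEPS and OVA arrays share no array with the pair compared here and neither lies in column 4. AEPS against OVA is therefore a further comparison of AEPS with an injection without it, although without alum. The AEPS injection also lacked OVA, so this pair differs in OVA as well as in AEPS, unlike the pair compared here. Among 14471 genes above background in both comparisons, 3.45% were at least 2-fold higher and 2.25% at least 2-fold lower in AEPS than in OVA. Of the 898 genes higher in OVA+AEPS than in OVA+Alum, 205 (22.8%) were also higher in AEPS than in OVA, and these are 41.1% of the 499 genes higher there. A further 23 were lower. Of the 854 lower genes, 161 (18.9%) were lower in AEPS than in OVA, which is 49.4% of the 326 lower there, and 19 were higher. Among the higher genes that are column 4 genes, 13 of 156 (8.3%) were higher in AEPS than in OVA, against 192 of 742 (25.9%) of the rest. Column 4 genes were picked for high values on both the AEPS and OVA arrays. That choice by itself favours a small difference between them, so no conclusion is drawn from these 2 shares. Ifit2, a column 4 gene, differed by 4.03 between AEPS and OVA, Cxcl10 by 2.72 and Slc40a1 by -3.26.

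Some called genes were set apart by 1 array only. Both AEPS arrays were at least 2-fold above all 3 others for 167 of the 1014 higher genes, and 2-fold below them for 83 of the 966 lower genes. The OVA+Alum array stood at least 2-fold below each of the 4 other arrays for 96 of the higher genes and above each of them for 159 of the lower genes. The OVA+AEPS array alone stood above the 4 others for 145 of the higher genes and below them for 25 of the lower genes. Of those 145, 96 were well above background on only 1 of the 2 compared arrays.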

How the data were processed

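Peritoneal lavage cells were measured on 5 single-colour (Cy3) Agilent arrays, 1 per injection. The scanner files deposited by the authors give intensity on a linear scale, made with Agilent Feature Extraction 10.7.1.1, per the file headers, with background already subtracted. The flags per spot in the deposited files are other values of 0 or 1. The deposited series table holds log2 values. It served as an alternative, and its scale was worked out from its correlation with the log2 scanner signal (0.9998 or above) and its equal medians (4.67). No genome build for the array is given in the sources used here.

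Control spots (3671 of 62976) and outlier spots (193 on the OVA+AEPS and 219 on the OVA+Alum array) were left out, and no spot was saturated. The share of the 55681 probes well above background ran from 56.7% to 60.0%. The log2 of the 75th percentile was subtracted from the log2 signal, and spots of 1 probe were averaged. Gene symbols came from a match of the systematic name to RefSeq transcripts of GRCm38.p6 (26582 probes matched and 29099 did not). The brightest probe stood for a gene. A probe well above background on 1 array only gives a bound, computed with the higher of its own signal and the lowest signal well above background on the dim array. No bound results where that value is not below the signal on the other array. Spot replicates had a median SD of 0.043 to 0.060 (log2).

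Members were called at 2-fold, with no test. The scripts were tested on simulated data. The 52 lists (1012 genes, 989 matched, 948 compared) and the members were chosen with earlier results of these data known. Named are the 15 largest differences each way above background on both arrays, 8 bounds each way, up to 8 members of each list by size, defining markers, housekeeping genes, and list members by role. Tools were Python 3.11.15, pandas 2.3.3, R 4.3.3 and limma 3.58.1 (normexp, offset 50). The 12 alternatives changed scaling, background correction, source, filter, probe choice, outlier spots, position on the array and the column 4 genes. Values of some list members are not reported here.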

Additional observations from a re-analysis of the deposited data

How the results depend on the processing

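No paired analysis was possible because each injection has 1 array, and for the same reason no replicate could be left out. Of the 12 alternatives, 9 left both counts of called genes within 1.5 times those reported. Spike-in scaling gave 1528 higher and 611 lower genes. Normexp with the 75th percentile gave 501 and 480, and normexp with quantile normalization gave 506 and 448. Normexp adds an offset of 50 to every signal, which by construction shrinks differences of dim probes. The share of higher genes among those called was 51.2% as reported, 41.6% with scaling to the median of each array and 71.4% with spike-in scaling. The median of all genes shifted by -0.102 and 0.236 with these scalings, and by 0.112 with no filter on dim probes. The deposited log2 values gave 967 higher and 1026 lower genes, of which 946 and 940 were among those reported. Without column 4 genes the counts were 858 and 954. None of the 52 list medians, taken relative to all genes, moved by 0.4 or more under the 12. Scaling by array medians or spike-ins shifts all genes alike, so these 2 alternatives could not move such a median. Of 441 named genes 332 stayed within 1.96 technical SE under every alternative run for them. None of the 238 called among them changed sign, while 3 other called genes did with the median over the probes of a gene. Shifts of -0.102 and 0.236 are too small to turn the sign of a gene called at 2-fold, and a change of filter leaves its value as it was. Named genes well above background on 1 array only had technical SEs up to 1.46. Their differences are given as bounds where a bound could be computed, while the counts of called genes use their measured differences.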

Other observations

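Probes without a gene symbol leaned further towards OVA+AEPS than named ones. Of 15080 such probes above background on at least 1 of the 2 arrays, 1174 (7.79%) were higher in OVA+AEPS by 2-fold or more and 734 (4.87%) lower, against 6.79% and 6.19% of 19463 probes with a symbol. This difference was not tested. Among them were 7769 probes that the array names by a chromosome interval (long intergenic noncoding RNA), of which 660 (8.50%) were higher and 381 (4.90%) lower. Such a probe may still lie in a known gene.

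Several of the largest bounds belong to genes bright on 1 array alone. Aff2 was at 0.10 in OVA+AEPS and between -7.49 and -7.01 on the other 4 arrays, at least 51.9-fold higher than in OVA+Alum. Fank1, Nhlrc4, Aadacl4fm2 and Kcnh8 had the same shape, and AEPS alone did not share their signal. Glb1l2 was bright on both AEPS arrays, at -0.48 in OVA+AEPS and -1.27 in AEPS. On the alum side Tmem169 stood at 0.56 in OVA+Alum and between -7.44 and -7.12 on the others, at least 46.8-fold higher in OVA+Alum. Tex11 was also bright in OVA (-3.06), at -0.76 in OVA+AEPS and -7.53 in OVA+Alum.

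Vasoactive peptide genes held large values among few members. Edn1 (endothelin 1) stood at 2.66 in OVA+AEPS, 2.13 in AEPS, 0.94 in OVA, -0.97 in OVA+Alum and -3.81 in PBS, and Adm (adrenomedullin) differed by 2.31 ± 0.20. Both are column 4 genes. Ch25h, which makes 25-hydroxycholesterol, was also a column 4 gene at 2.18 and -0.86. Thbd (thrombomodulin) stood at -1.03 in OVA+AEPS and 1.54 in OVA+Alum and was higher on both column 4 arrays. Of 21 adhesion genes, 2 were higher and 4 lower in OVA+AEPS. The lower ones were Jam3 (-2.30), Itgax (-1.86), Selplg (-1.45) and Itgal (-1.13). The higher ones were the selectin genes Sele (2.22 ± 0.32) and Selp (1.16 ± 0.06), and Selp is also in the large peritoneal macrophage list.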
